A study of Mus musculus with 8 samples.

Results

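The nuclear receptors described here are 40 mouse genes given as a list, from the steroid receptors to the orphan receptors Nr6a1 and Nr0b2. They were read from the deposited count tables, which hold 42416 gene identifiers each. All 40 genes were found there by their identifiers, 38 held at least 1 count in some library, and 30 passed a filter on low counts that left 14268 genes for testing. The vitamin D receptor and the REV-ERB genes are not in the list. The study deleted calcineurin, a calcium-activated protein phosphatase, in the distal convoluted tubule (DCT) of the mouse kidney, and compared the transcriptome of that segment between knockout (KO) and Control animals. The 4 KO libraries came from animals labelled Cnb1fl Tg/Tg, and the 4 Control libraries from animals whose Cnb1fl label was wt; Cnb1 is the regulatory subunit of calcineurin, gene symbol Ppp3r1. Both groups carried the Cre transgene NCCcre Tg/+, named for the thiazide-sensitive NaCl cotransporter of this segment, and the reporter TOMATO Tg/+. All animals were gavaged with tamoxifen, which activates the Cre, at 2 mg daily on 5 days, and were studied 3 weeks after that. Each library was made from 1000 DCT fragments collected on a large-particle sorter, and each label names a different animal number. The sources used here give no age, sex or strain. Recombination can only be as complete as the Cre activity, and its extent was not measured here.

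Nuclear receptors are transcription factors, most of which are switched by small lipophilic ligands such as steroids, thyroid hormone, retinoids, fatty acids, oxysterols and bile acids. Some bind DNA as homodimers, others as heterodimers with a retinoid X receptor, and orphan members act without a known physiological ligand. Bound receptors recruit coactivators or corepressors that change chromatin at their target genes. In the distal nephron the mineralocorticoid receptor is best known for mediating the action of aldosterone on sodium transport, and the oestrogen-related receptors for supporting genes of mitochondrial energy metabolism.

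The libraries held 18161442 to 45150953 counts and 18263 to 19470 genes with a count. Mitochondrial genes took 17.0 to 19.1% of the counts in Control and 13.4 to 18.4% in KO. The level of Ppp3r1 was 84.4 to 108 CPM in Control (counts per 1000000, after scaling for library composition) and 74.0 to 97.7 CPM in KO, so the targeted gene does not separate the groups and its counts do not check the labels. Libraries also differed in markers of other cells. The summed level of 12 proximal tubule markers was 1637 to 5653 CPM in Control and 1562 to 3748 CPM in KO, and that of 5 thick ascending limb markers was 7423 to 12196 CPM in Control and 2757 to 5451 CPM in KO. The 8 DCT markers, which are the defining genes of the labelled segment, summed to 9442 to 13617 CPM in Control and 5128 to 9199 CPM in KO, and none of them was at 0 in all libraries. The 6 connecting tubule and collecting duct markers summed to 252 to 458 CPM in Control and 103 to 262 CPM in KO. The 7 macrophage markers summed to 10.1 to 13.1 CPM in Control and 20.2 to 76.8 CPM in KO. Csf1r made up most of the highest sum (72.2 of 76.8 CPM in KO replicate 1), and its exons overlap Hmgxb3 on the opposite strand, which held 149% as many counts. Csf1r and Cd68 did not overlap between the groups, whereas Ptprc, Adgre1, C1qa, C1qb and Lyz2 did. The part of these differences in any receptor's value was not tested except where a value is given below. In bulk samples, fewer cells of a type and less RNA per cell cannot be told apart.

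No nuclear receptor was called higher or lower in KO by the test used. Of the 30 members tested, 0 passed an adjusted p of 0.05 in edgeR's quasi-likelihood test with Benjamini-Hochberg adjustment over all genes, where 2.21% of all genes passed (1.34% higher and 0.876% lower). DESeq2 and limma-voom also called 0 members, against 5.25% and 3.64% of all genes. At an unadjusted p under 0.05, 6 of the 30 members stood out, against 13.9% of all genes tested. Nr3c2 and Rara had a higher mean in KO, against 7.79% of all genes at that p, and Esrrb, Rora, Nr1i2 and Nr4a1 a lower one, against 6.15%. The fold changes divided evenly, 15 positive and 15 negative, and their median was -0.00082 on the log2 scale, against -0.02 for all genes. For 25 of the 30 members (83.3%) the 95% interval of the log2 fold change lay inside -1 to 1, against 72.1% of all genes, so a doubling or more in either direction lies outside their intervals. The 5 members with wider intervals were Hnf4a, Hnf4g, Pgr, Nr1i2 and Nr4a1. In 1 member, Nr3c2, the 4 KO values did not overlap the 4 Control values (3.33%), against 9.44% of all genes.

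**Figure D1:**
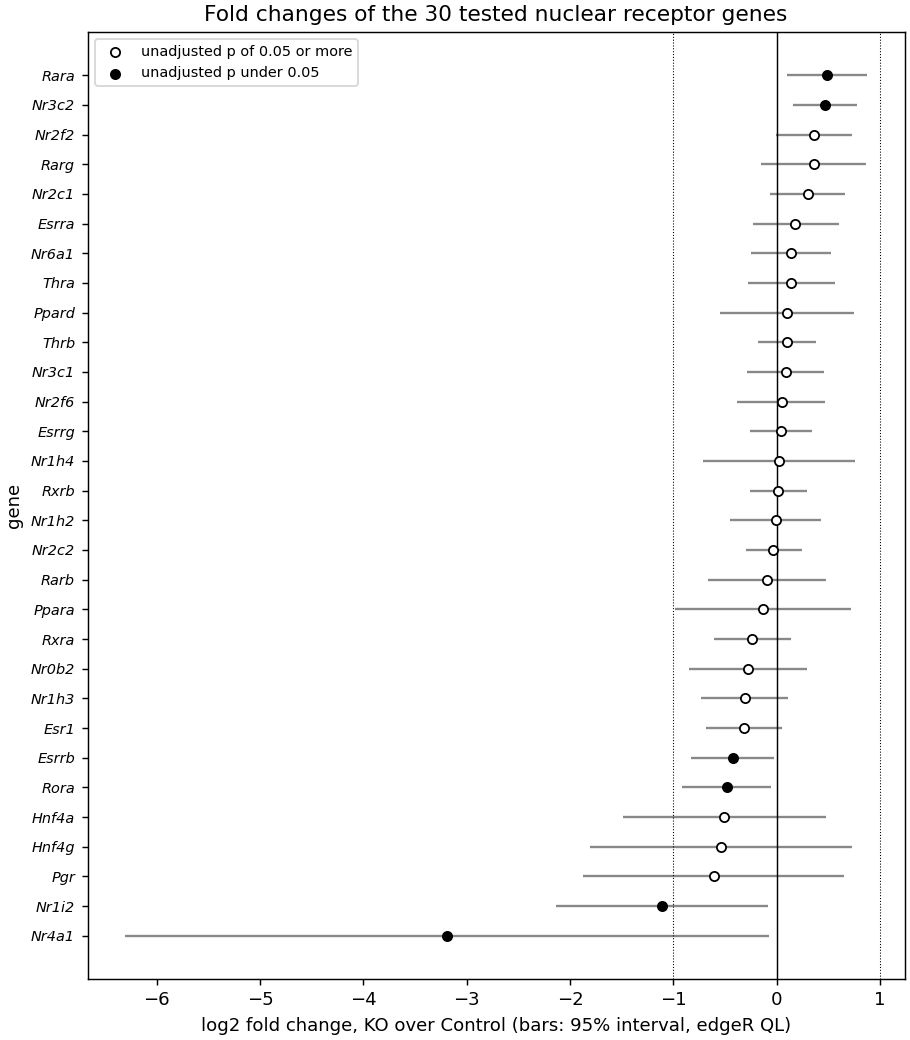
Log2 fold change of KO over Control for the 30 nuclear receptors that were tested (points) with 95% intervals (lines). Most intervals lie between -1 and 1, and Nr4a1 at -3.19 has the widest.

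Levels were compared between genes as CPM per kilobase of exon. The highest mean levels over all 8 libraries were those of Hnf4a, a regulator of proximal tubule and liver genes (35.9 CPM per kb), of Esrra (29.7 CPM per kb) and of Esrrg (22.9 CPM per kb). The next 3 were Nr4a1 (21.6 CPM per kb), Nr2f6 (21.1 CPM per kb) and Thra (18.1 CPM per kb). The place of Nr4a1 came from Control replicate 2: over the other 7 libraries its mean was 3.52 CPM per kb and its rank among the members was 20. Which receptor ranked highest changed with the library. It was Hnf4a in 4 libraries, Esrra in 3 and Nr4a1 in 1. Levels of Hnf4a ran from 11.1 to 61.6 CPM per kb across libraries, those of Esrra from 21.3 to 37.6 CPM per kb and those of Esrrg from 18.8 to 25.7 CPM per kb. Only 1 of the 39 steps between neighbours in the order, Rora over Nr6a1, ran the same way in all 8 libraries. The order of the other neighbours changed with the library or was tied, and differences between neighbours were not tested. Nr2e3 and Nr5a2 held 0 counts in every library, which allows up to 0.0617 CPM in KO replicate 1 and up to 0.157 CPM in Control replicate 3, the lowest and highest limits of the 8 libraries. These limits, at 3 counts, cover counting error only.

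**Figure D2:**
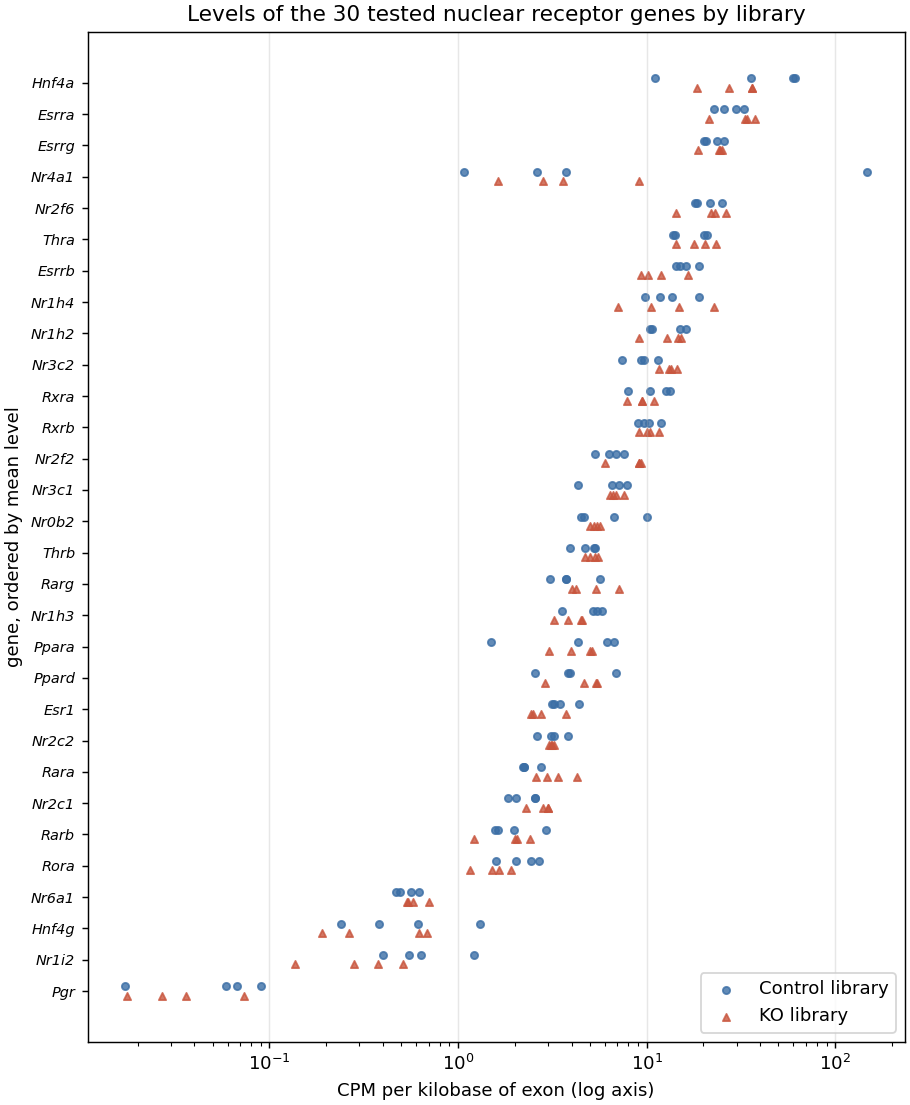
Level of each of the 30 tested nuclear receptors in CPM per kilobase of exon, on a log axis, with 1 point per library for 4 Control and 4 KO libraries. Hnf4a, Esrra and Esrrg lie highest by mean, and the lone high Nr4a1 point is Control replicate 2.

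Among the steroid receptors, Nr3c2 encodes the mineralocorticoid receptor (ENSMUSG00000031618, GRCm38 chr8:76899442-77245012, plus strand). Its levels in Control replicates 1 to 4 were 60.7, 48.2, 63.0 and 74.5 CPM, and in KO replicates 1 to 4 they were 87.3, 85.0, 75.6 and 93.3 CPM. Every KO value exceeded every Control value, the nearest pair being Control replicate 4 and KO replicate 3. The means were 61.6 ± 10.8 CPM (SD, n = 4) in Control and 85.3 ± 7.34 CPM (SD, n = 4) in KO. The log2 fold change was 0.47 (SE 0.14, 95% interval 0.16 to 0.78), which did not pass the threshold (edgeR quasi-likelihood adjusted p = 0.153). The adjusted p was 0.0539 in DESeq2 and 0.0677 in limma-voom. Across the 17 alternative settings the log2 fold change stayed between 0.36 and 0.62, and the adjusted p between 0.0539 and 0.423 under edgeR, DESeq2 or limma-voom.

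Nr3c1 encodes the glucocorticoid receptor, which binds many of the same DNA elements. Its Control levels were 33.3, 60.6, 54.8 and 50.2 CPM and its KO levels 58.0, 49.4, 53.0 and 50.8 CPM. The KO values lay inside the Control range, and the log2 fold change was 0.09 (SE 0.17; edgeR adjusted p = 0.833). Per kilobase, the ratio of Nr3c2 to Nr3c1 was 2.16, 0.943, 1.36 and 1.76 in Control and 1.79, 2.04, 1.69 and 2.18 in KO, so the groups overlapped. Esr1, the oestrogen receptor alpha gene, stood at 44.4, 43.3, 47.6 and 60.1 CPM in Control and 51.1, 37.7, 34.3 and 33.5 CPM in KO. KO replicate 1 lay inside the Control range and the other 3 KO values below it (log2 fold change -0.32, SE 0.16; edgeR adjusted p = 0.416). Pgr, the progesterone receptor gene, stayed under 1 CPM, at 0.146 to 0.770 CPM in Control and 0.150 to 0.630 CPM in KO. Esr2 was too low to test, with at most 0.301 CPM in any library.

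The oestrogen-related receptors bind DNA without a steroid and act with the PGC-1 coactivators on mitochondrial genes. Esrra stood at 131, 99.8, 113 and 144 CPM in Control and 146, 150.2, 93.4 and 165 CPM in KO, with overlapping groups (log2 fold change 0.18, SE 0.19; edgeR adjusted p = 0.669). Esrrg stood at 129, 147, 125 and 159.7 CPM in Control and 155, 117, 151 and 153 CPM in KO. These groups also overlapped, and the log2 fold change was 0.04 (SE 0.13; edgeR adjusted p = 0.909). Esrrb (ENSMUSG00000021255, GRCm38 chr12:86361117-86521628, plus strand) stood at 97.4, 90.5, 87.0 and 115 CPM in Control and 100.2, 61.3, 72.2 and 56.8 CPM in KO. Of the KO libraries, replicate 1 lay inside the Control range and the other 3 lay below it. The means were 97.5 ± 12.4 CPM (SD, n = 4) in Control and 72.6 ± 19.5 CPM (SD, n = 4) in KO. The log2 fold change was -0.42 (SE 0.18, 95% interval -0.83 to -0.02), short of the threshold (edgeR adjusted p = 0.336). Without KO replicate 1 it was -0.63 (edgeR adjusted p = 0.0952), and without each of the other 7 libraries it was -0.47 to -0.32. Per kilobase, the ratio of Esrrb to Esrrg was 0.775, 0.633, 0.715 and 0.739 in Control and 0.663, 0.540, 0.490 and 0.381 in KO. The KO replicate 1 ratio lay inside the Control range and the other 3 KO ratios below it. The summed thick limb and DCT marker levels given above were also lower in KO, though not every member was. Umod made up most of the thick limb sum and fell in KO (log2 fold change -1.19, edgeR adjusted p = 0.041). Slc12a1, Cldn16 and Ptger3 also had negative log2 fold changes, at -0.77, -0.63 and -0.35, and were not called by edgeR. Only Cldn19 was positive, with a log2 fold change of 0.23 (edgeR adjusted p = 0.494). Of the 8 DCT markers edgeR called 4 lower, Pvalb, Trpm6, Calb1 and Klhl3, and 1 higher, Tfap2b (log2 fold change 0.63; edgeR adjusted p = 0.028). Slc12a3, the NaCl cotransporter, Emx1 and Sall3 were not called, at -0.41, -0.11 and 0.17. The part of these cells in the Esrrb value was not tested.

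**Figure D3:**
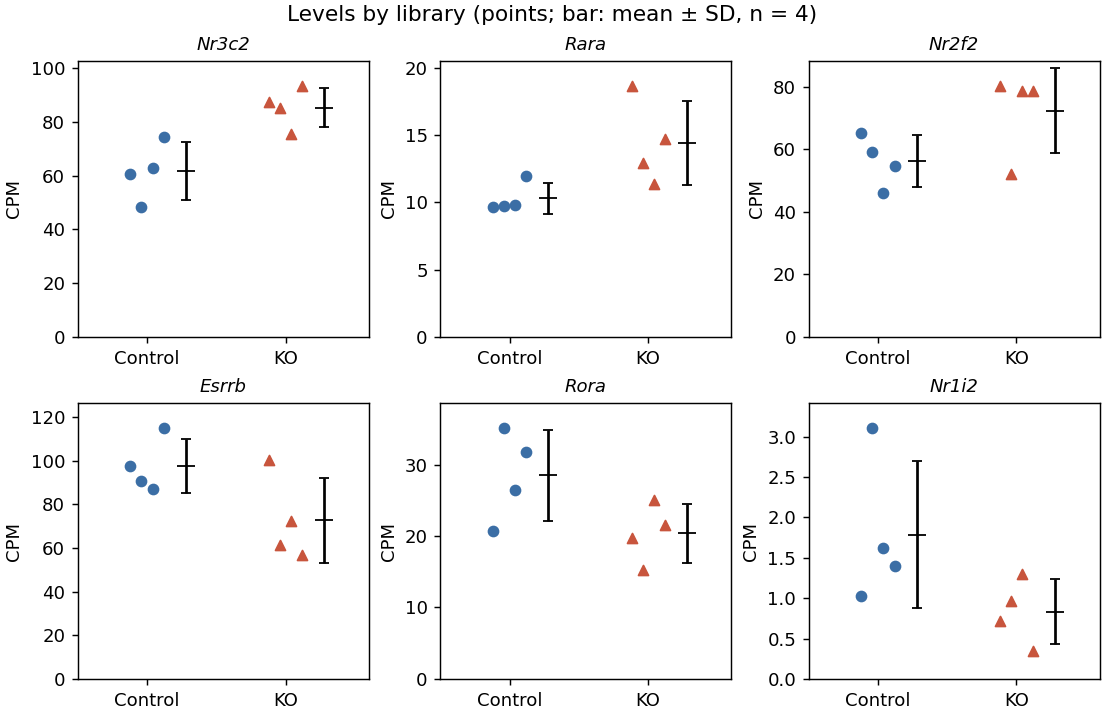
Level in CPM of Nr3c2, Rara, Nr2f2, Esrrb, Rora and Nr1i2 in each of 4 Control and 4 KO libraries (points), with the group mean and SD (bars, n = 4). Nr3c2 is the panel without overlap between groups, and for Rara, Nr2f2, Esrrb and Nr1i2 a single KO library lies among the Control values.

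The thyroid hormone receptors Thra and Thrb, which switch between repression and activation on binding hormone, overlapped between the groups. Thra stood at 95.9, 65.4, 63.7 and 92.5 CPM in Control and 108, 82.7, 65.7 and 94.1 CPM in KO, where only KO replicate 1 lay outside the Control range (log2 fold change 0.14, SE 0.19; edgeR adjusted p = 0.745), and its exons overlap a gene on the opposite strand that held 27.6% as many counts. Thrb stood at 29.0 to 39.5 CPM in Control and 34.8 to 41.1 CPM in KO (log2 fold change 0.10, SE 0.12; edgeR adjusted p = 0.73). Among the retinoic acid receptors, Rara (ENSMUSG00000037992, GRCm38 chr11:98927818-98974942, plus strand) stood at 9.65, 9.74, 9.77 and 11.98 CPM in Control and 18.6, 13.0, 11.4 and 14.7 CPM in KO. Control replicate 4 exceeded KO replicate 3, and every other KO value lay above every Control value. The means were 10.3 ± 1.13 CPM (SD, n = 4) in Control and 14.4 ± 3.12 CPM (SD, n = 4) in KO. For Rara the log2 fold change was 0.49 (SE 0.17, 95% interval 0.10 to 0.88), short of the threshold (edgeR adjusted p = 0.237). Rarg stood at 13.2 to 24.0 CPM in Control and 17.2 to 30.4 CPM in KO (log2 fold change 0.36, SE 0.23; edgeR adjusted p = 0.505). Rarb stood at 8.31 to 15.4 CPM in Control and 6.40 to 12.7 CPM in KO (log2 fold change -0.09; edgeR adjusted p = 0.892). Exons of Rarb overlap those of Top2b on the opposite strand, which held 799% as many counts, and without a stated strand setting the reads of the pair cannot be told apart.

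The retinoid X receptors are the shared heterodimer partners of many other members. Rxra stood at 43.7, 69.4, 57.3 and 72.3 CPM in Control and 59.8, 51.4, 51.5 and 43.0 CPM in KO, with overlapping groups (log2 fold change -0.24, SE 0.17; edgeR adjusted p = 0.547). Rxrb was nearly level, at 35.6 to 47.2 CPM in Control and 36.04 to 46.2 CPM in KO. Its log2 fold change was 0.01 (SE 0.12, 95% interval -0.26 to 0.29; edgeR adjusted p = 0.976). Rxrg, known from muscle and brain, was too low to test, with 36 counts in all 4 Control libraries together and 21 in the KO libraries.

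The PPARs respond to fatty acids and control their oxidation and storage. Ppard stood at 19.2 to 51.5 CPM in Control and 21.6 to 41.1 CPM in KO (log2 fold change 0.10, SE 0.29; edgeR adjusted p = 0.889). Ppara stood at 5.75, 25.9, 23.8 and 16.6 CPM in Control and 19.7, 15.3, 19.2 and 11.7 CPM in KO, where Control replicate 1 was lowest (log2 fold change -0.13, SE 0.38; edgeR adjusted p = 0.891). Pparg, the adipocyte receptor, held 6 counts in all 4 Control libraries together and 7 in the KO libraries and was not tested. Rora (ENSMUSG00000032238, GRCm38 chr9:68653786-69388246, plus strand), known for driving clock genes, stood at 20.7, 35.1, 26.4 and 31.8 CPM in Control and 19.7, 15.2, 25.0 and 21.6 CPM in KO. Control replicate 1 lay among the KO values and the other 3 Control values lay above them. The means were 28.5 ± 6.32 CPM (SD, n = 4) and 20.4 ± 4.10 CPM (SD, n = 4). For Rora the log2 fold change was -0.48 (SE 0.19, 95% interval -0.92 to -0.05), short of the threshold (edgeR adjusted p = 0.305). Rorb held 11 counts in all 4 Control libraries together and 7 in the KO libraries.

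The oxysterol receptors LXR-beta and LXR-alpha are encoded by Nr1h2 and Nr1h3. Nr1h2 stood at 35.0 to 54.1 CPM in Control and 30.5 to 51.3 CPM in KO (log2 fold change -0.01, SE 0.20; edgeR adjusted p = 0.983). Nr1h3 stood at 8.97 to 14.6 CPM in Control and 8.17 to 11.4 CPM in KO (log2 fold change -0.31, SE 0.19; edgeR adjusted p = 0.48). Nr1h4, the bile acid receptor FXR, differed 3.24-fold among KO libraries, at 34.1, 24.3, 52.6 and 16.2 CPM, against 22.5 to 43.9 CPM in Control (log2 fold change 0.02, SE 0.33; edgeR adjusted p = 0.98). Nr1i2 (ENSMUSG00000022809, GRCm38 chr16:38248323-38294824, minus strand) encodes PXR, the receptor for foreign chemicals. Its levels were 1.02, 3.10, 1.62 and 1.40 CPM in Control and 0.720, 0.964, 1.298 and 0.351 CPM in KO. KO replicate 3 exceeded Control replicate 1, so the groups overlapped. The means were 1.79 ± 0.911 CPM (SD, n = 4) and 0.833 ± 0.400 CPM (SD, n = 4). For Nr1i2 the log2 fold change was -1.11 (SE 0.46, 95% interval -2.14 to -0.08), short of the threshold (edgeR adjusted p = 0.32), and it was -0.69 without Control replicate 2. Nr1i3, the related receptor CAR, held 17 counts in all 4 Control libraries together and 9 in the KO libraries and overlaps Tomm40l on the opposite strand.

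Hnf4a (ENSMUSG00000017950, GRCm38 chr2:163506808-163572910, plus strand) differed 5.55-fold between the lowest and the highest library. Its levels were 53.5, 297, 288 and 173 CPM in Control and 176, 133, 174 and 89.4 CPM in KO. Control replicate 1 was the lowest of all 8 libraries and Control replicates 2 and 3 the highest, so the KO values lay inside the Control range. The means were 203 ± 115 CPM (SD, n = 4) and 143 ± 40.9 CPM (SD, n = 4). The log2 fold change was -0.51 (SE 0.44, 95% interval -1.49 to 0.48; edgeR adjusted p = 0.62), with -0.83 without Control replicate 1 (edgeR adjusted p = 0.166), -0.26 without Control replicate 2 and -0.29 without Control replicate 3. Hnf4g, its close relative, was low, at 0.634 to 3.44 CPM in Control and 0.501 to 1.81 CPM in KO (log2 fold change -0.54, SE 0.57; edgeR adjusted p = 0.682).

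The 12 proximal tubule markers, among them the endocytic receptors Lrp2 and Cubn and the phosphate transporter Slc34a1, are given beside these values. Their summed level was 1637, 5653, 5050 and 3432 CPM in Control and 3344, 2411, 3748 and 1562 CPM in KO, a 3.62-fold range. Control replicates 2 and 3 were highest and Control replicate 1 and KO replicate 4 lowest, as they were for Hnf4a. Per 1000 CPM of these markers, Hnf4a stood at 32.7, 52.6, 57.1 and 50.5 CPM in Control and 52.6, 55.1, 46.4 and 57.2 CPM in KO. This ratio ranged 1.75-fold across libraries, against 5.55-fold for the level itself. Ppara stood at 3.51, 4.58, 4.71 and 4.83 CPM per 1000 CPM of the markers in Control and 5.89, 6.33, 5.13 and 7.47 CPM in KO. On this ratio every KO value of Ppara lay above every Control value, whereas the groups overlapped in CPM (log2 fold change -0.13). The markers in the divisor had lower means in KO (median log2 fold change -0.55), which by itself raises such a ratio in KO. The share of all genes without overlap on this ratio was not computed, so no change of Ppara is read from it. For Ppara the range was 2.13-fold per marker level against 4.50-fold in CPM, for Hnf4g 2.11-fold against 6.87-fold, for Nr1i2 2.91-fold against 8.85-fold and for Nr1h4 2.61-fold against 3.24-fold. These 5 genes were chosen for the ratio after their values were seen, and the part of proximal tubule RNA in their fold changes was not tested. All 12 markers had a negative log2 fold change (median -0.55), and 0 of them were called by edgeR, DESeq2 or limma-voom, 0 at an unadjusted p under 0.05.

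**Figure D4:**
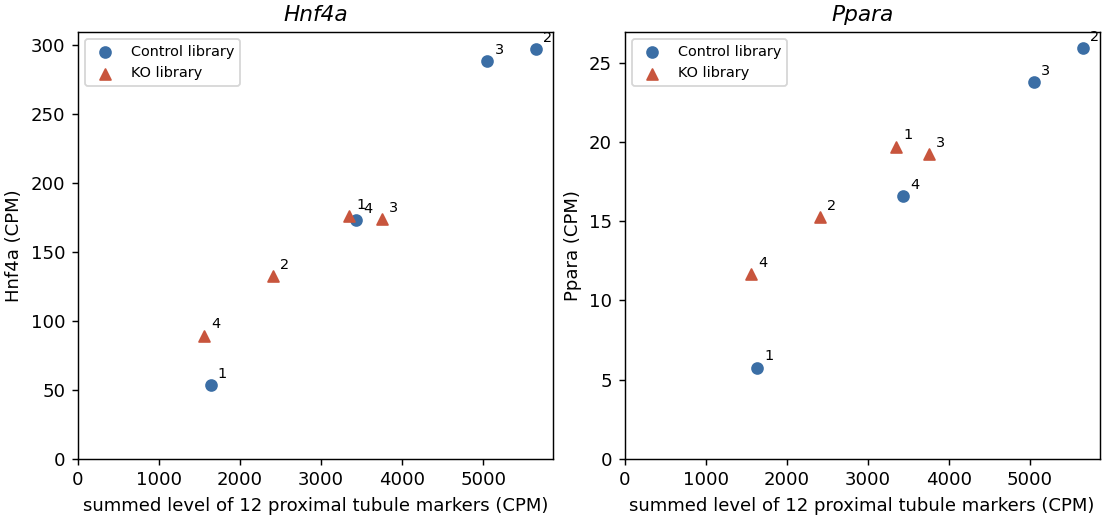
Level of Hnf4a and of Ppara in CPM against the summed level of 12 proximal tubule markers in CPM, with 1 point per library for 4 Control and 4 KO libraries. The libraries with the highest marker sums, Control replicates 2 and 3, also hold the most Hnf4a, and Control replicate 1 holds the least of both receptors.

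The NR2 orphan receptors include the testicular receptors Nr2c1 and Nr2c2 and the COUP transcription factors. Nr2f2 encodes COUP-TFII, known from vessel and mesenchymal development. It stood at 65.3, 59.3, 45.9 and 54.6 CPM in Control and 80.2, 52.1, 78.8 and 78.6 CPM in KO. KO replicate 2 lay inside the Control range and the other 3 KO values above it (log2 fold change 0.36, SE 0.16; edgeR adjusted p = 0.361). Without KO replicate 2 the log2 fold change was 0.49 (edgeR adjusted p = 0.186), and without each of the other 7 libraries it was 0.28 to 0.44. Summed endothelial markers overlapped between the groups, at 23.4 to 54.2 CPM in Control and 17.8 to 77.7 CPM in KO. The 6 stroma markers summed to 4.39 to 8.78 CPM in Control and 1.25 to 4.52 CPM in KO. The part of these cells in the Nr2f2 value was not tested. Nr2f6, a COUP-related receptor, stood at 74.8, 55.1, 53.9 and 64.7 CPM in Control and 69.2, 65.6, 42.5 and 78.9 CPM in KO. The KO values spread to both sides of the Control range (log2 fold change 0.05, SE 0.19; edgeR adjusted p = 0.927). Nr2c1 stood at 8.53 to 11.8 CPM and 10.5 to 13.8 CPM (log2 fold change 0.30, SE 0.16; edgeR adjusted p = 0.436). Nr2c2 stood at 39.0 to 57.1 CPM and 45.5 to 48.5 CPM (log2 fold change -0.03, SE 0.12; edgeR adjusted p = 0.935), and it overlaps Mrps25 on the opposite strand. Nr2f1 held 34 counts in all 4 Control libraries together and 33 in the KO libraries.

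Nr6a1, the germ cell nuclear factor, stood at 5.06 to 6.69 CPM in Control and 5.84 to 7.59 CPM in KO (log2 fold change 0.14, SE 0.18; edgeR adjusted p = 0.735). Nr0b2 encodes SHP, a repressor without a DNA-binding domain that is induced by FXR in liver. Its levels were 11.3, 7.65, 5.28 and 5.11 CPM in Control and 6.40, 5.67, 6.22 and 5.96 CPM in KO, and all 4 KO values lay inside the Control range (log2 fold change -0.28, SE 0.26; edgeR adjusted p = 0.638).

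The NR4A receptors are immediate early genes, transcribed within minutes of calcium or cAMP signals, and they act without a known physiological ligand. Calcineurin is among the enzymes that link calcium to their transcription in other cells. The 250 bases upstream of the RefSeq start of each (GRCm38.p6) are shown because the values of these 3 genes moved together in a single library. Capitals mark TGACG or its reverse complement CGTCA, the core of the cAMP response element, searched on both strands. The Nr4a1 window is chr15:101266596-101266845 on the plus strand, that of Nr4a2 chr2:57124004-57124253 on the minus strand and that of Nr4a3 chr4:48045055-48045304 on the plus strand.
Nr4a1: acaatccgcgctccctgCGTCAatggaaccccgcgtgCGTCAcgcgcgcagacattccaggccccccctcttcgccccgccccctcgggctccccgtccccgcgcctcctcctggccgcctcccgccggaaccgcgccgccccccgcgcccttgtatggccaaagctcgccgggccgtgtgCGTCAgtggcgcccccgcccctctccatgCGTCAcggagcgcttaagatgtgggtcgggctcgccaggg
Nr4a2: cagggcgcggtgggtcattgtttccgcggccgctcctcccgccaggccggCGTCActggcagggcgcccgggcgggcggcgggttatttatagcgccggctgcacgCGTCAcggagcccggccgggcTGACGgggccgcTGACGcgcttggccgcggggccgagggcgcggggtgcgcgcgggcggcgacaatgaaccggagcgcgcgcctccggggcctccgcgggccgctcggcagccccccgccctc
Nr4a3: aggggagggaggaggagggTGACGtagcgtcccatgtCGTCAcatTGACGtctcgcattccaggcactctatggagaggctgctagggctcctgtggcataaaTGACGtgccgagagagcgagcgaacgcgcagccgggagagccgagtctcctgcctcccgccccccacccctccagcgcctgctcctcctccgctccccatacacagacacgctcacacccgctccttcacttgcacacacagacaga
Within these 250 bases each gene held 4 matches. RefSeq windows of 250 bases before to 50 after the start were found for 37 of the 40 members, all but Thra, Nr3c1 and Hnf4g. Only the 250 bases before the start were searched. There TGACG or CGTCA lay in 12 of the 58 windows of these members (20.7%), against 17.8% of all 32851 windows. The direct-repeat core AGGTCA or TGACCT, which many nuclear receptors bind, lay in 9 of the 58 (15.5%), against 14.0% of all windows. Its variant GGGTCA or TGACCC lay in 11 of the 58 (19.0%), against 11.6% of all windows. These shares were not tested. A match is a description of the letters and not evidence of binding.

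Nr4a1 (ENSMUSG00000023034, GRCm38 chr15:101254269-101274795, plus strand) stood at 13.1, 520.4, 3.76 and 9.22 CPM in Control and 9.89, 5.75, 32.1 and 12.6 CPM in KO. Control replicate 2 was 16.2 times the highest other library and held 90.7% of all counts of the gene. The log2 fold change of -3.19 (SE 1.40, 95% interval -6.31 to -0.07; edgeR adjusted p = 0.348) rested on Control replicate 2. Without that library the log2 fold change was 0.79 (edgeR adjusted p = 0.565), and DESeq2 gave no p for the gene.

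Nr4a2 and Nr4a3 were too low to test. Nr4a2 stood at 0.390, 5.46, 0.575 and 0.100 CPM in Control and 0.247, 0.193, 0.236 and 0.351 CPM in KO. Nr4a3 stood at 0.634, 7.05, 0.261 and 0.100 CPM in Control and 0.0823, 0.116, 0.393 and 0.0501 CPM in KO. For both, Control replicate 2 was again the highest, by 9.5 and 11.1 times over the next library. Of 7 other immediate early genes, named after their values were seen, 4 also had their highest level of all 8 libraries in Control replicate 2. In that library Atf3 stood at 11.9 CPM, Egr2 at 4.84 CPM, Arc at 20.5 CPM and Btg2 at 358 CPM, and the next highest library stood at 2.63, 2.48, 11.8 and 193 CPM. The other 3, Egr1, Fos and Junb, were highest in a KO library. Egr1, an immediate early zinc finger factor, stood at 31.5, 430.5, 22.2 and 34.3 CPM in Control and 84.6, 85.7, 581 and 197 CPM in KO. Fos stood at 89.7, 189, 60.5 and 61.4 CPM in Control and 186, 128, 365 and 330.02 CPM in KO. In Egr1 and Fos KO replicate 3 was the highest library, in Junb KO replicate 4 (161 CPM), and in all 3 Control replicate 2 was the highest Control. Control replicate 2 is also the deepest Control library, at 42389558 counts, and its part in these values was not tested.

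**Figure D5:**
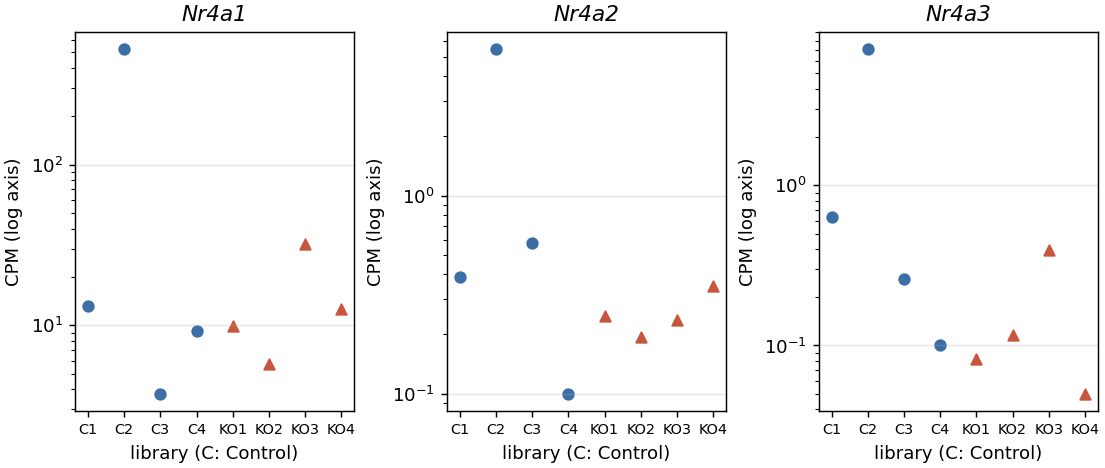
Level in CPM, on a log axis, of Nr4a1, Nr4a2 and Nr4a3 in each of 4 Control and 4 KO libraries (points). Control replicate 2 is highest for all 3 genes, at 520.4 CPM for Nr4a1.

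The partners and targets of the receptors were read from textbook lists in the same way. Their counts stand against the shares of all genes tested: 2.21% called by edgeR, 5.25% by DESeq2, 3.64% by limma-voom, and 13.9% at an unadjusted p under 0.05 in edgeR. All 23 cofactor genes were tested and 0 were called by edgeR, DESeq2 or limma-voom. At an unadjusted p under 0.05, 1 stood out: Ncoa6, a coactivator, with a log2 fold change of 0.32 (edgeR adjusted p = 0.357). Pprc1, a PGC-1-related coactivator, came next, at 0.47 (edgeR adjusted p = 0.424), and overlaps Ldb1 on the opposite strand. The list's fold changes were mostly positive, 19 against 4 negative, with a median of 0.18 against -0.02 for all genes. Control replicate 1 held the lowest level of the 8 libraries for every cofactor except Hdac3, Tbl1xr1, Gps2, Sirt1 and Kat2b. In that library Ncor1, Ncoa1 and Ep300 reached 64.5, 38.0 and 32.7 CPM, while their second-lowest values were 122, 65.8 and 54.6 CPM. The part of this single Control library in the positive median was not tested. Of the 12 genes of the HSP90 machinery, which holds steroid receptors ready for ligand, 0 were called by any of the 3 tools and 0 had an unadjusted p under 0.05. Fkbp5, a cochaperone and glucocorticoid target, stood at 81.4, 204, 103 and 98.0 CPM in Control and 161, 186, 171 and 141 CPM in KO. Control replicate 2 lay above all KO values and the other 3 Control values below them. Its log2 fold change was 0.44 (edgeR adjusted p = 0.473; adjusted p 0.0401 to 0.667 over the alternatives), with 0.28 without Control replicate 1 (edgeR adjusted p = 0.652). Without Control replicate 2 it was 0.81 and passed the threshold (edgeR adjusted p = 0.0401). Ppp5c, a phosphatase of the same machinery, had a log2 fold change of 0.19 (edgeR adjusted p = 0.538).

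Of 28 genes that make, carry or remove ligands, 19 were tested and 0 were called by edgeR, with 4 at an unadjusted p under 0.05, all lower in KO (median of the list -0.54). Hsd11b2, the enzyme that keeps glucocorticoids off the mineralocorticoid receptor, stood at 86.3, 131, 134 and 189.9 CPM in Control and 72.1, 72.7, 102 and 41.3 CPM in KO. The groups overlapped at Control replicate 1 and KO replicate 3. Hsd11b2 had a log2 fold change of -0.91 (SE 0.28; edgeR adjusted p = 0.174), with an adjusted p of 0.0359 in DESeq2 and 0.0387 in limma-voom. Fabp3, a fatty acid carrier, had a log2 fold change of -0.87 (edgeR adjusted p = 0.222). Hsd11b2 is also among the connecting tubule and collecting duct markers, all 6 of which had a lower mean in KO at an unadjusted p under 0.05, and the part of those cells was not tested.

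Of 20 glucocorticoid and mineralocorticoid targets, 19 were tested and 0 were called by edgeR. At an unadjusted p under 0.05 there were 6 (31.6%, against 13.9% of all genes), 3 higher and 3 lower, and DESeq2 and limma-voom each called 2 (against 5.25% and 3.64% of all genes). Those calls were 2 subunits of the epithelial sodium channel. Scnn1a, the alpha subunit, stood at 496, 696, 558 and 655 CPM in Control and 791, 933, 779 and 878 CPM in KO, without overlap. Its log2 fold change was 0.49 (SE 0.14; edgeR adjusted p = 0.137), with an adjusted p of 0.0239 in DESeq2 and 0.0436 in limma-voom. Scnn1g, the gamma subunit, stood at 98.8, 89.9, 141 and 167 CPM in Control and 38.2, 58.3, 105 and 39.6 CPM in KO, with KO replicate 3 inside the Control range. Its log2 fold change was -1.04 (edgeR adjusted p = 0.18), with an adjusted p of 0.0329 in DESeq2 and 0.0405 in limma-voom. Scnn1g, too, is among the connecting tubule and collecting duct markers.

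Abcg1, a cholesterol exporter induced by LXR, was the 1 gene that edgeR called in these partner and target lists. It stood at 10.1, 11.7, 7.32 and 11.1 CPM in Control and 5.12, 4.59, 6.06 and 5.71 CPM in KO, and every KO value lay below every Control value. The mean fell from 10.1 ± 1.93 CPM (SD, n = 4) to 5.37 ± 0.650 CPM (SD, n = 4), a log2 fold change of -0.91 (SE 0.19; edgeR quasi-likelihood adjusted p = 0.0435). The adjusted p was 0.000384 in DESeq2 and 0.0476 in limma-voom. The call held in 7 of 17 alternatives, with adjusted p from 0.000384 to 0.228 over edgeR, DESeq2 and limma-voom. Of the single libraries, leaving out Control replicate 1, 2 or 4 or KO replicate 1, 2 or 4 ended it, at adjusted p of 0.07, 0.111, 0.129, 0.104, 0.145 and 0.104 in edgeR, and leaving out Control replicate 3 or KO replicate 3 did not. Of the 24 LXR, FXR, PXR and CAR targets 16 were tested, 4 had an unadjusted p under 0.05, and the median log2 fold change was -0.27.

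Of 26 PPAR targets, 23 were tested and 0 were called by edgeR, with 3 at an unadjusted p under 0.05 and 2 called by DESeq2 and 1 by limma-voom. Ucp2, a mitochondrial carrier, stood at 237, 135, 149 and 179 CPM in Control and 362, 356, 179.6 and 361 CPM in KO, with KO replicate 3 inside the Control range (log2 fold change 0.85; edgeR adjusted p = 0.145). Lpl, lipoprotein lipase, stood at 1195 to 1468 CPM in Control and 542 to 1115 CPM in KO, without overlap (log2 fold change -0.65, edgeR adjusted p = 0.181). Over the 17 alternatives in edgeR, DESeq2 and limma-voom the adjusted p ran from 0.0239 to 0.449 for Ucp2, called in 3. For Lpl it ran from 0.0395 to 0.369, with a call in 1. Of 26 targets of the oestrogen-related receptors and PGC-1, 25 were tested and 0 were called by edgeR or limma-voom and 1 by DESeq2, with 5 at an unadjusted p under 0.05. That DESeq2 call was Cox7a1, a cytochrome oxidase subunit, at 53.8, 22.5, 21.7 and 25.1 CPM in Control and 11.9, 16.5, 18.6 and 10.02 CPM in KO. All KO values lay below all Control values, and the log2 fold change was -1.11 (edgeR adjusted p = 0.13; DESeq2 adjusted p = 0.0149). Idh3b, a citric acid cycle enzyme subunit, had a log2 fold change of -0.35 (edgeR adjusted p = 0.292). The median of the list was -0.24, with 20 negative and 5 positive values.

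Of 19 retinoic acid and thyroid hormone targets, 15 were tested, 0 were called by edgeR, DESeq2 or limma-voom, and 2 had an unadjusted p under 0.05. These were Hr, a corepressor of the thyroid hormone receptor (log2 fold change -0.83; edgeR adjusted p = 0.28), and Cyp26b1, which breaks down retinoic acid (log2 fold change -1.82; edgeR adjusted p = 0.316). Of 16 HNF4A targets, 12 were tested and 0 were called by edgeR, with 3 at an unadjusted p under 0.05, while DESeq2 and limma-voom each called 2. All 12 had a negative log2 fold change, with a median of -0.73. G6pc, glucose-6-phosphatase, stood at 96.4, 212, 180.4 and 153 CPM in Control and 70.1, 56.3, 109 and 51.9 CPM in KO. KO replicate 3 exceeded Control replicate 1, and the log2 fold change was -1.16 (edgeR adjusted p = 0.0777; DESeq2 adjusted p = 0.00238; limma-voom adjusted p = 0.00898). Apom, an apolipoprotein, stood at 18.8, 36.3, 25.6 and 24.0 CPM in Control and 15.7, 14.3, 17.3 and 11.6 CPM in KO, without overlap (log2 fold change -0.83, edgeR adjusted p = 0.0789). Over the 17 alternatives in edgeR, DESeq2 and limma-voom its adjusted p ran from 0.00785 to 0.24, and 3 of them called it. The proximal tubule markers described above also had negative fold changes throughout, Slc22a6 stands in both lists, and their part in these values was not tested.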

How the data were processed

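RNA sequencing libraries of sorted mouse DCT fragments were analysed, 4 Control and 4 KO by genotype label. Each file deposited by the authors holds raw, whole-number counts per Ensembl gene. The submitters' processing notes name GRCm38.p6 and the tools STAR 2.7.4a, fastp 0.20.0 and bcl2fastq 2.20. How reads were counted, with which annotation and strand setting, is not given in the sources used here, so genes that overlap on opposite strands may share reads. Gene symbols, exon lengths and overlaps were taken from GENCODE vM21, and promoter windows from RefSeq (GRCm38.p6).

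Genes were filtered with filterByExpr, scaled by TMM and tested with edgeR 4.0.16 (quasi-likelihood F test, two-sided, genotype alone) in R 4.3.3, with Benjamini-Hochberg adjustment over 14268 genes and a threshold of 0.05. The test was checked on simulated counts. Standard errors were derived from the fold change and its F statistic. CPM values use TMM-scaled totals, and levels per kilobase divide them by exon length. Alternatives were DESeq2 1.42.0, limma 3.58.1 (voom with quality weights), other scalings and filters, a batch term for file names with an index sequence (Control replicate 2 and KO replicate 1), the 6 other libraries alone, a block for the series of animal numbers, and leaving out each library. No pair of libraries looked like 1 library deposited repeatedly: the lowest chi-square per degree of freedom over 28 pairs was 28.8. Replicate numbers follow the order of deposit.

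The members and lists were chosen with earlier results of these data known. Described in full are members past the threshold, with an unadjusted p under 0.05, without overlap between groups, or among the 6 highest by level per kilobase. Of each partner or target list, up to 4 called genes are named, or the 2 with the smallest p. Animal numbers differ between labels, but nothing else is said of the replicates. The p-values set the genotype difference against the spread between these samples.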

Additional observations from a re-analysis of the deposited data

Results flagged for a closer look

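Of 69 groups of 4 values examined, 6 held a library whose gap to its neighbour, as a share of the group's range, exceeded Dixon's 95% critical value. For independent, normally distributed values chance gives about 1 in 20. CPM values need not be normally distributed and the groups share the same libraries, so the 6 are not a test against that rate. In 3 of them Control replicate 2 was the high library: Nr4a1 with a share of 0.982, Nr4a2 with 0.911 and Nr4a3 with 0.923. In Esrrg (0.901) and Nr2f2 (0.942) KO replicate 2 was the low library of KO. In Rara (0.950) Control replicate 4 was the high library of Control.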

How the results depend on the processing

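No paired analysis was possible because replicate numbers only name libraries in order of deposit. In all 17 alternatives 0 nuclear receptors were called, and 17 of the 30 tested kept the sign of their fold change in every alternative that tested them (Pgr and Nr1i2, among them, were not tested with at least 5 CPM in 4 libraries). Genes called over the whole table numbered 316, against 749 by DESeq2, 519 by limma-voom, 140 with at least 5 CPM in 4 libraries, 199 with a batch term for an index sequence in the file name, 56 in the 6 libraries without an index sequence and 29 with the block term for the animal number series. Without 1 library they numbered 36 to 388: 198, 166, 111 and 53 without Control replicates 1 to 4, and 175, 36, 388 and 110 without KO replicates 1 to 4. Higher calls made up 60.4%, against 72.9% with library totals, 44.3% with at least 5 CPM, 37.5% in the 6 libraries and 17.2% with the animal series. With library totals the median log2 fold change was 0.13 for all genes (-0.02 with TMM) and 0.15 for the members.

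Among ligand supply genes DESeq2 and limma-voom each called 1. They each called 2 steroid receptor targets, with 0 to 1 in edgeR without 1 library (1 without Control replicate 2 or KO replicate 3). Of PPAR targets DESeq2 called 2 and limma-voom 1, with 0 to 1 without 1 library (1 without KO replicate 3). Of LXR, FXR and xenobiotic targets both called 2; the 1 call became 0 with library totals, the batch term, the 6 libraries or the animal series, and 0 to 1 without 1 library. Of ERR and PGC-1 targets DESeq2 called 1. Of HNF4A targets both called 2, with 1 without a filter on low counts and 0 to 2 without 1 library (2 without Control replicate 1, 1 without KO replicate 3). The chaperones had 0 to 1 without 1 library (1 without Control replicate 2).

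The log2 fold change changed sign in 13 members, whose causes were not tested. In limma-voom this held for Nr3c1 (-0.05), Rarb (0.01), Nr1h2 (0.14) and Nr1h4 (-0.19). With library totals it held for Rarb (0.07), Nr1h2 (0.15) and Nr2c2 (0.12), with the animal series for Nr1h2 (0.15) and Nr2c2 (0.07), and with at least 5 CPM for the log2 fold change of Rxrb (-0.0011). In the 6 libraries it held for Thra (-0.06), Rarb (0.07), Rxrb (-0.08), Ppara (0.0049), Ppard (-0.05), Nr2f6 (-0.05) and Nr4a1 (0.95). Without 1 library the ranges were -0.07 to 0.20 for Nr3c1, -0.01 to 0.13 for Esrrg, -0.21 to 0.13 for Rarb, -0.06 to 0.09 for Rxrb, -0.43 to 0.10 for Ppara, -0.08 to 0.42 for Ppard, -0.11 to 0.12 for Nr1h2, -0.34 to 0.24 for Nr1h4, -0.82 to 0.11 for Hnf4g, -0.11 to 0.07 for Nr2c2, -0.07 to 0.19 for Nr2f6 and -3.88 to 0.79 for Nr4a1.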
